A study of Mus musculus with 10 samples.

Results

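The genes of major histocompatibility complex (MHC) class I antigen presentation were followed here in melanoma tumors: the 8 heavy chain genes H2-K1, H2-D1, H2-Q4, H2-Q6, H2-Q7, H2-T22, H2-T23 and H2-M3, the light chain gene B2m and the transactivator gene Nlrc5. The genes were listed by name, as classical and non-classical heavy chains with their partner and their transactivator, and the list was drawn up with earlier results of these data known. All 10 were found by Ensembl identifier among the 17737 genes listed, and all 10 were among the 13798 genes tested. RNA was sequenced in bulk from tumors that grew from B16-F10 cells, a melanoma line of C57BL/6 origin, implanted under the skin of the right flank of C57BL/6 mice and collected on day 11. The WT group (5 tumors, numbered 2 to 6) came from cells overexpressing IL-18 WT, and the D69A group (5 tumors, numbered 1 to 5) from cells overexpressing IL-18 D69A, in which alanine replaces the aspartate at position 69. Both groups therefore carry an introduced IL-18, and no tumor without one was analysed here. No label states whether each line is a clone or a pool, how the IL-18 was driven, or the age of the mice. No label ties each tumor to a mouse of its own, and p-values therefore reflect the spread among these samples.

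A class I molecule is a heavy chain held together by the light chain beta-2-microglobulin and by a short peptide, and it shows that peptide to CD8 T cells. Its absence or presence is also read by receptors on natural killer (NK) cells. Heavy chain genes are transcribed from a short promoter region that holds an element for interferon-induced factors, often an element for NF-kappaB, and a set of boxes on which RFX, CREB or ATF and NF-Y proteins assemble and recruit NLRC5. Interferon-gamma, which IL-18 induces in NK and T cells, raises this pathway through IRF1 and NLRC5 itself. B16-F10 cells in culture are known for little class I on their surface, which interferon-gamma raises.

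The promoters are shown because the 10 genes moved together in the comparison that follows. RefSeq promoters (GRCm38.p6, the build also called mm10) were matched for 9 of the 10 genes, all but Nlrc5, and the 250 bases before each start were searched on both strands. The letters searched were CCAAT (the NF-Y box), TGATGAC (a CREB or ATF box), TTTCACTT and AAANNGAAA (forms of the interferon element) and GGGATTCC (a kappaB element), and they were chosen after these promoters had been read. The stretches below are those of the 3 genes that fell most (H2-K1, H2-Q6 and H2-Q7) and of the 2 that fell least (H2-T22 and B2m). They lie at chr17:34000351-34000465 on the minus strand, chr17:35424670-35424807 on the plus strand, chr17:35439015-35439151 on the plus strand, chr17:36042793-36042951 on the minus strand and chr2:122147541-122147646 on the plus strand, upstream of the start of the gene. Capitals mark the matches, and ATTGG is CCAAT read on the other strand.
H2-K1: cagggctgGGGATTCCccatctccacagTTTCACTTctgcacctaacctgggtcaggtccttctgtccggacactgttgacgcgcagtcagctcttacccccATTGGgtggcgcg
H2-Q6: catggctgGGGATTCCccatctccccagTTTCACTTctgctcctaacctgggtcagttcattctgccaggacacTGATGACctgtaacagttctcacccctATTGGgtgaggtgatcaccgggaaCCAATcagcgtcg
H2-Q7: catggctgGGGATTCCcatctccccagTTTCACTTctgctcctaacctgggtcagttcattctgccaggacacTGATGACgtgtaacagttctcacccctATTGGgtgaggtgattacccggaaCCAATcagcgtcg
H2-T22: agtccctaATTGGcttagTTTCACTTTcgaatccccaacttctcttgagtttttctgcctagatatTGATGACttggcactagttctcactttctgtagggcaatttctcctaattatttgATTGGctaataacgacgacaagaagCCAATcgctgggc
B2m: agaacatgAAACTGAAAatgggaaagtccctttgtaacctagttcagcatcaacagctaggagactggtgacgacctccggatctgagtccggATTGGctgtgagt
H2-K1 has 2 starts in RefSeq, of which the first listed was used.

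H2-Q6 and H2-Q7, 2 genes of the Q region, held the same series of elements in the same order: GGGATTCC first, then TTTCACTT, followed by the CREB or ATF box, by an NF-Y box on the minus strand and by another on the plus strand. H2-D1 held that series too, though its decrease was only 3.09-fold. H2-Q4 held it without GGGATTCC. H2-K1 held GGGATTCC with TTTCACTT and 1 NF-Y box but no exact TGATGAC, and its stretch reads tgttgac at that place. Only exact matches before the start were counted, so a box with other letters or past the start would be missed. In the windows of H2-D1 and H2-T23, annotated exon bases of the gene itself begin at -250 and -154 from the RefSeq start used. Their matches therefore do not all lie upstream of annotated exons. H2-T22 held the CREB or ATF box and 3 NF-Y boxes, and its TTTCACTT match and its AAANNGAAA match on the other strand overlap and are almost the same bases. B2m held AAANNGAAA and 1 NF-Y box, as did H2-T23, and H2-M3 held TTTCACTT with the CREB or ATF box and 3 NF-Y boxes. H2-T23 thus held neither GGGATTCC nor an exact CREB or ATF box, and it fell 5.47-fold. Whether any element goes with the size of the decrease was not tested. The NF-Y box was in all 9 promoters and in 34.5% of the 27025 mouse promoters searched the same way. TTTCACTT was in 7 of the 9 against 1.44% of all promoters, AAANNGAAA in 3 against 9.52%, the CREB or ATF box in 6 against 2.77%, and GGGATTCC in 4 against 0.873%. One or the other interferon form was in all 9, against 10.3% of all promoters. The letters were picked from these promoters, and all but that of B2m belong to related heavy chain genes. The counts beside the shares are therefore a description and not a test. These matches describe letters in a window and do not show that a factor was bound.

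Total counts ran from 25904345 in WT tumor 6 to 37578722, and a floor of 3 counts came to between 0.0798 and 0.116 CPM (read counts scaled to library size), below the level of every gene of the group in every tumor. Melanocyte markers were present in every tumor, as the label melanoma requires, with a summed level of 17780.0 to 22090.0 CPM in WT tumors and 26180.0 to 34040.0 CPM in D69A tumors, where 8 of 11 rose. All 15 pan-leukocyte markers were lower in D69A tumors. Their summed level ranged from 800.4 to 2051 CPM in WT tumors and from 301 to 592 CPM in D69A tumors. NK cell markers (8 of 8), T cell markers (9 of 9), dendritic cell markers (8 of 8) and macrophage markers (9 of 11) fell as well. So did fibroblast markers (7 of 7), endothelial markers (7 of 7) and B cell markers (2 of the 3 tested, of 6 listed). Of 10 skeletal muscle markers, 0 were called in either direction. None of these markers was at 0 in all tumors. At the same threshold, given below, 24.7% of all tested genes were called lower and 18.8% higher. Every value below is a level in whole tissue, where fewer cells of a type and less RNA per cell cannot be told apart. Il18, for which introduced and endogenous or WT and D69A transcripts are counted together, had a log2 fold change of -0.12 (SE 0.08), which did not pass (edgeR's quasi-likelihood test, Benjamini-Hochberg adjusted p = 0.266).

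The question here was how class I transcripts differ between tumors whose introduced IL-18 does or does not carry the substitution. All 10 genes were lower in D69A tumors, by 2.20-fold for B2m to 7.68-fold for H2-Q7. With a threshold of 0.05 on the Benjamini-Hochberg adjusted p of edgeR's quasi-likelihood test, all 10 were called, against a background of 24.7% of all tested genes called lower, 18.8% called higher and 43.5% called in either direction. The median log2 fold change (D69A minus WT) was -2.09 over the 10 genes and 0.00 over all tested genes. All 10 were also lower by at least 2-fold, which held for 15.8% of all tested genes. In each of the 10 genes every D69A tumor lay below every WT tumor, a pattern shown by 17.4% of tested genes. The gap was narrow: the lowest WT tumor exceeded the highest D69A tumor by 1.43-fold in B2m and Nlrc5 and by 1.78-fold in H2-Q6, where it was widest. The leukocyte markers above moved with these genes, and their part in the difference was not tested. Over the 15 pan-leukocyte markers the median log2 fold change was -2.07, close to that of the 10 genes.

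**Figure D1:**
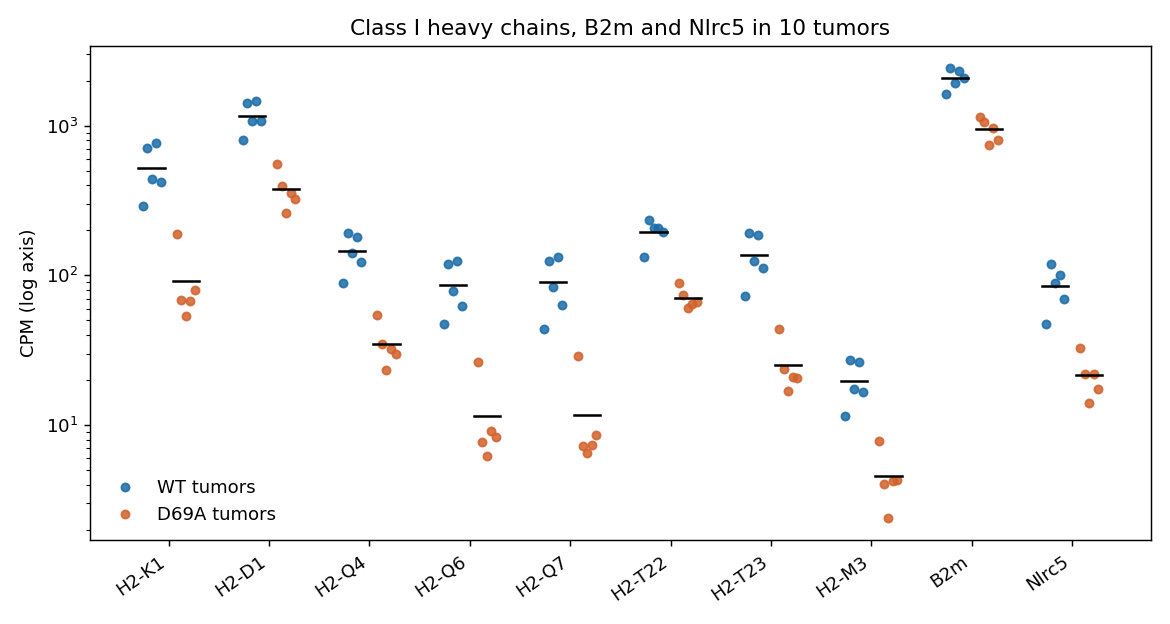
Level of each gene in each tumor (CPM, log axis), with WT tumors in blue, D69A tumors in orange and the mean of 5 tumors as a bar. In all 10 genes the orange points lie below the blue ones, and D69A tumor 1 is the highest orange point.

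H2-K1 (chr17:33996017-34000347, minus strand, GENCODE on mm10) and H2-D1 (chr17:35262730-35267499, plus strand) encode the classical heavy chains of C57BL/6 mice, which present peptides to CD8 T cells. H2-K1 stood at 289, 714, 439, 767 and 419 CPM in WT tumors 2 to 6. In D69A tumors 1 to 5 it stood at 189.7, 68.1, 53.4, 68.0 and 79.6 CPM. D69A tumor 1 was thus well above the other D69A tumors for H2-K1 and still below WT tumor 2, the lowest of its group. The means were 525 ± 205 CPM and 91.8 ± 55.5 CPM (SD, n = 5 each), a log2 fold change of -2.52 (SE 0.39; edgeR's quasi-likelihood test, Benjamini-Hochberg adjusted p = 0.000897), or 5.72-fold lower. H2-D1 stood at 802, 1420.0, 1079.8, 1461 and 1079 CPM in WT tumors. In D69A tumors H2-D1 stood at 555, 395, 261, 355 and 326 CPM. The groups did not overlap for H2-D1 either. Its log2 fold change was -1.63 (SE 0.21; the same test, adjusted p = 0.000541), or 3.09-fold lower. The log2 ratio of H2-D1 to H2-K1 rose from 1.21 in WT tumors to 2.16 in D69A tumors, a difference of 0.95 (two-sided exact permutation test, p = 0.00794, adjusted p = 0.0143 over the 9 ratios to H2-K1).

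The Q region chains showed the steepest and a moderate decrease. H2-Q6 (chr17:35424850-35430055, plus strand) and H2-Q7 (chr17:35439155-35443773, plus strand) belong to the Qa-2 family of non-classical chains, of which H2-Q7 is anchored in the membrane by a lipid. H2-Q7 stood at 44.2, 125, 84.2, 133 and 63.4 CPM in WT tumors 2 to 6. In D69A tumors 1 to 5 it stood at 28.7, 7.27, 6.52, 7.40 and 8.52 CPM. The other 4 D69A tumors lay close together, and D69A tumor 1 stood 3.37-fold above the next of them. H2-Q7 had the largest decrease of the group, with a log2 fold change of -2.94 (SE 0.48; edgeR's quasi-likelihood test, Benjamini-Hochberg adjusted p = 0.00107), and without D69A tumor 1 the log2 fold change was -3.58. H2-Q6 ranged from 47.0 to 125 CPM in WT tumors and from 6.22 to 26.4 CPM in D69A tumors and was 7.46-fold lower (log2 fold change -2.90, SE 0.43, adjusted p = 0.00083 in the same test). H2-Q4 (chr17:35379617-35385290, plus strand), another non-classical chain, ranged from 89.4 to 192 CPM and from 23.5 to 54.0 CPM and was 4.17-fold lower (log2 fold change -2.06, SE 0.25, adjusted p = 0.000472 in the same test). H2-Q6 and H2-Q7 also fell relative to H2-K1, by 0.44 and 0.51 in log2 ratio (two-sided exact permutation test, adjusted p = 0.0143 for each).

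The T and M region chains differed among themselves. H2-T23 (chr17:36029773-36032855, minus strand) encodes the Qa-1 chain, which is read by the CD94 and NKG2A receptor of NK cells. It stood at 72.5, 193, 125, 186 and 111 CPM in WT tumors 2 to 6. In D69A tumors 1 to 5 H2-T23 stood at 43.7, 23.8, 16.9, 20.8 and 20.7 CPM. H2-T23 was 5.47-fold lower (log2 fold change -2.45, SE 0.32; edgeR's quasi-likelihood test, Benjamini-Hochberg adjusted p = 0.00053), a decrease whose log2 ratio to H2-K1 did not differ detectably between the groups (difference 0.14, two-sided exact permutation test, adjusted p = 0.262). H2-T22 (chr17:36037128-36042747, minus strand), a ligand of some gamma-delta T cells, stood at 133, 234, 209, 206 and 194 CPM in WT tumors. In D69A tumors H2-T22 stood at 89.5, 73.7, 60.9, 64.6 and 66.9 CPM, with D69A tumor 1 only 1.21-fold above the next. H2-T22 had the smallest decrease of the 8 heavy chains, with a log2 fold change of -1.46 (SE 0.15; the same edgeR test, adjusted p = 0.00037), or 2.75-fold. H2-M3 (chr17:37270220-37274484, plus strand), which presents peptides that begin with formyl-methionine, was 4.36-fold lower. It ranged from 11.4 to 27.1 CPM in WT tumors and from 2.40 to 7.78 CPM in D69A tumors (log2 fold change -2.12, SE 0.32, adjusted p = 0.000847 in the same test).

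B2m (chr2:122147686-122153083, plus strand) encodes the light chain that all of these heavy chains need to reach the cell surface. It stood at 1639, 2418, 1940.3, 2308 and 2096 CPM in WT tumors 2 to 6. In D69A tumors 1 to 5 B2m stood at 1148.5, 1066.5, 739, 969 and 806 CPM. The D69A tumors lay close together here, and D69A tumor 1 exceeded the next by only 1.08-fold. B2m had the smallest decrease of the 10 genes, with a log2 fold change of -1.14 (SE 0.14; edgeR's quasi-likelihood test, Benjamini-Hochberg adjusted p = 0.000472). Nlrc5 (chr8:94434356-94527272, plus strand) encodes the NLR family protein that drives transcription of class I genes. It stood at 47.0, 119.8, 89.6, 100.3 and 69.6 CPM in WT tumors. In D69A tumors Nlrc5 stood at 32.9, 21.8, 14.1, 21.8 and 17.5 CPM. Its decrease was 3.94-fold (log2 fold change -1.98, SE 0.27, adjusted p = 0.000631 in the same test), between those of H2-D1 and H2-Q4.

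**Figure D2:**
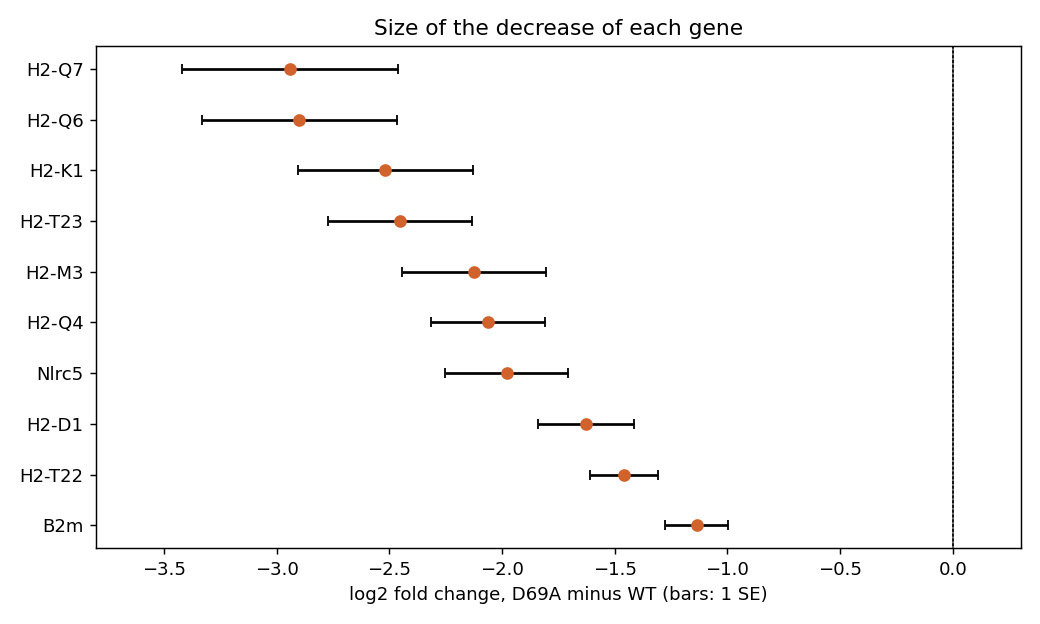
Log2 fold change of D69A against WT for each gene, with bars of 1 SE from edgeR's quasi-likelihood fit over 5 tumors per group. The points run from -2.94 for H2-Q7 to -1.14 for B2m, and no bar reaches 0.

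The spread within each group followed the same tumors in every gene. WT tumor 2 was the lowest WT tumor in all 10 genes, and WT tumor 3 (6 genes) or WT tumor 5 (4 genes) was the highest. D69A tumor 1 was the highest D69A tumor and D69A tumor 3 the lowest in all 10 genes. After subtraction of each group's mean, the log2 CPM of 2 genes of the group correlated across the 10 tumors with a Pearson r between 0.74 (B2m with H2-Q7) and 0.99 (H2-Q4 with H2-T23), with a median of 0.94 over the 45 pairs. The points share libraries, depth and cell content, so these r values are given as a description. Nlrc5 correlated with the other 9 genes at 0.88 (H2-Q7) to 0.98 (H2-Q4), and its median r with all other tested genes was 0.02. WT tumor 4, WT tumor 3 and D69A tumor 1 were also the 3 tumors highest in skeletal muscle markers. Without those 3 tumors all 10 genes were still called lower, with log2 fold changes from -1.17 for B2m to -3.43 for H2-Q7.

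By the same centred correlation, genes outside the group most like H2-K1 included Clec4a1 (r = 0.995), Ly6a (0.986), Pirb (0.986) and Bin2 (0.985). Clec4a1 and Pirb encode receptors of myeloid cells. The closest to B2m were Syne3 (r = 0.978), Hrh2 (0.974), Slamf8 (0.968), the peptide transporter gene Tap1 (0.958) and the protease gene Ctss (0.957). Those closest to Nlrc5 were Notch1 (r = 0.985), Dhdh (0.984), Slamf7 (0.982), Lpxn (0.982) and Gbp9 (0.981). Each of the genes named here was lower in D69A tumors past the threshold except Syne3, which was at a log2 fold change of -0.29 (edgeR's quasi-likelihood test, Benjamini-Hochberg adjusted p = 0.101).

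The decrease was not of equal size in heavy and light chains. Each gene was divided by B2m within a tumor, a ratio that does not depend on how libraries are scaled, and the log2 ratios were compared between groups by exact permutation, two-sided, over the 252 assignments of 5 and 5 tumors. The smallest p this allows is 0.00794. All 9 ratios were lower in D69A tumors, and all 9 passed after Benjamini-Hochberg adjustment over the 9. Their direction followed from the results above, since B2m fell least of the group. The 9 ratios share B2m and the same tumors, so they are not independent. Without adjustment, 7.91% of the 13393 tested genes with reads in every tumor had a ratio to B2m that was lower at an exact permutation p under 0.05, as all 9 had. The ratio of H2-K1 to B2m was -2.06 ± 0.38 in WT tumors and -3.51 ± 0.56 in D69A tumors on the log2 scale (SD, n = 5 each; exact permutation adjusted p = 0.00893), a 2.72-fold loss beyond that of B2m. The largest further loss was that of H2-Q7 (3.87-fold), followed by H2-Q6 (3.69-fold), H2-K1, H2-T23 (2.47-fold) and H2-M3 (2.02-fold). Losses relative to B2m were smaller for H2-Q4 (1.89-fold), Nlrc5 (1.77-fold) and H2-D1 (1.41-fold). The H2-T22 ratio moved least, by 1.23-fold, its ranges overlapped, and its exact permutation p was 0.0238. The other 8 ratios did not overlap between the groups, though for Nlrc5 the highest D69A value (-5.125) and the lowest WT value (-5.123) nearly met. Over all tested genes, 3.5% had a ratio to B2m without overlap in this direction.

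**Figure D3:**
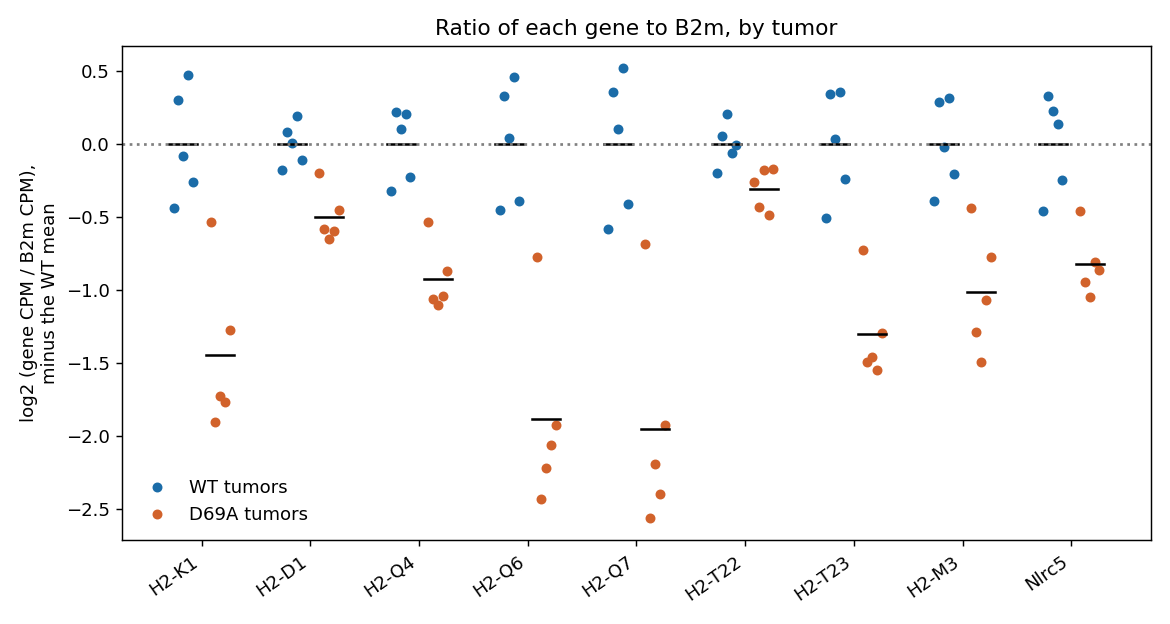
Log2 ratio of each gene to B2m in each tumor, shifted so that the WT mean of each gene is 0 (dotted line), with bars at the group means of 5 tumors. Orange D69A points lie lowest for H2-Q6 and H2-Q7, and the blue and orange ranges overlap for H2-T22.

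The 8 heavy chains were also added up, since a sum does not depend on how reads of similar H2 genes were divided among them. It can still depend on reads shared with genes outside the 8. Summed CPM was 1489, 3024, 2175, 3086 and 2068 in WT tumors 2 to 6. In D69A tumors 1 to 5 it was 994, 615, 430.2, 561 and 544. All D69A tumors were below all WT tumors, and the sum had a log2 fold change of -1.91 (SE 0.25; edgeR's quasi-likelihood test, Benjamini-Hochberg adjusted p = 0.000544), or 3.75-fold lower. H2-Q6 and H2-Q7 added together had a log2 fold change of -2.92 (SE 0.46, adjusted p = 0.000958 in the same test), close to that of each alone. Within the sum, H2-D1 held 50 ± 3.0% of the reads in WT tumors and 60.8 ± 3.4% in D69A tumors (SD, n = 5 each). H2-K1 held 21.7 ± 2.4% and 13.9 ± 3.2%, and its share in D69A tumor 1 (19.1%) was next to that in WT tumor 2 (19.4%). H2-T22 rose from 8.47 ± 1.23% to 11.8 ± 1.85%, while H2-Q6 went from 3.55% to 1.70% and H2-Q7 from 3.67% to 1.69%. These shares add up to 100% in each tumor, so they describe the make-up of the sum and are not separate tests.

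**Figure D4:**
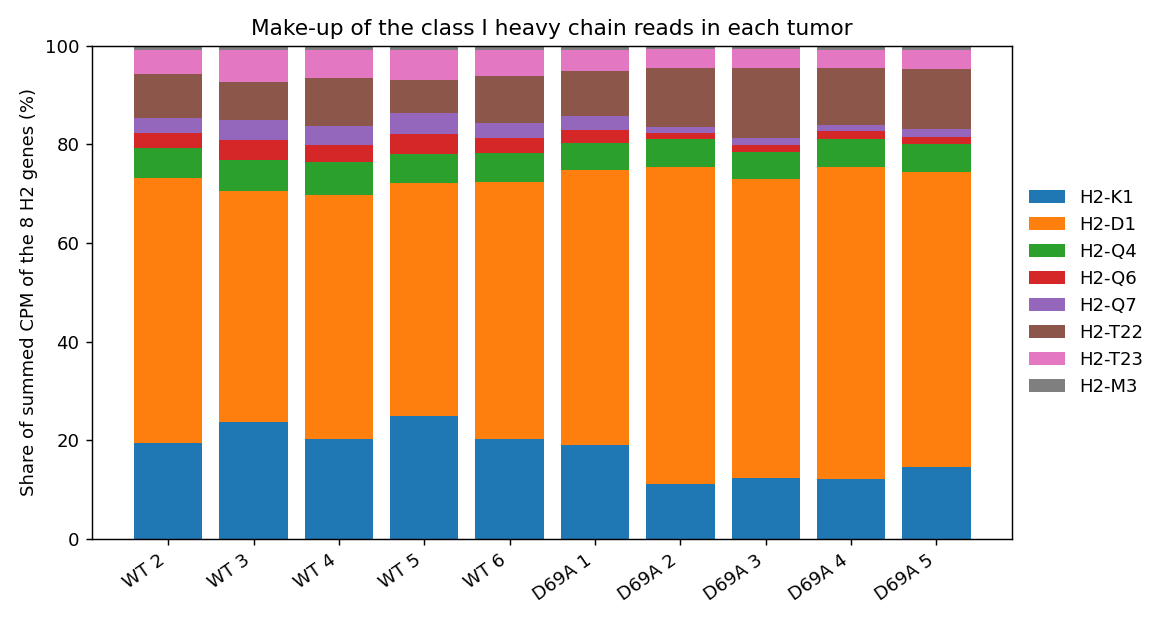
Share of each heavy chain gene in the summed CPM of the 8 H2 genes (percent), 1 bar per tumor. H2-D1 fills 47.0 to 53.9% of the WT bars and 55.8 to 64.3% of the D69A bars, and the D69A tumor 1 bar resembles the WT bars most in its H2-K1 share.

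Levels were compared between genes only after division by exon length (CPM per kb of all annotated exons). In WT tumors B2m came first at 2419 CPM per kb, before H2-D1 at 453 and H2-K1 at 179 CPM per kb, and the ranges of these 3 genes did not overlap. H2-T22 (57.2), H2-Q4 (56.0), H2-T23 (47.6), H2-Q6 (41.4), H2-Q7 (21.1), H2-M3 (13.8) and Nlrc5 (10.04 CPM per kb) followed, and each of these overlapped in range with its neighbour in the order. In D69A tumors the first 3 places were the same, at 1100.0 CPM per kb for B2m, 147 for H2-D1 and 31.2 for H2-K1, but the range of H2-K1 overlapped with that of H2-T22 (20.8 CPM per kb). Nlrc5 was last in both groups, at 2.55 CPM per kb in D69A tumors. With the length of the longest coding transcript instead, the ranges of H2-D1 and H2-K1 in WT tumors overlapped, and H2-T23 and H2-Q4, and H2-Q7 and H2-Q6, changed places.

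How far reads of the H2 genes can be told apart was measured on the annotated transcripts. Of the distinct stretches of 50 bases in H2-T22, 53.5% also occur in another gene, mostly H2-T10 (31.2%) and A930015D03Rik (26.5%), and 29.4% of its exon bases lie opposite the latter. The shared part was 36.4% for H2-Q4, 35% for H2-Q6, 26.5% for H2-Q7, 14.5% for H2-T23, 12.8% for H2-D1 and 9.63% for H2-K1. The part shared with other genes of the group was 2.28% for H2-T22, 13.4% for H2-Q4, 24.5% for H2-Q6 and 8.38% for H2-Q7. It was 4.17% for H2-T23, 10.2% for H2-D1 and 7.98% for H2-K1. The rest is shared only with genes outside the group, which the sums above do not cover. H2-Q5, which holds 8.74% of the H2-Q7 stretches and 5.99% of those of H2-Q6, had no row among the genes listed. Neither had H2-Q8 or H2-Q9. H2-M3 (0.576%), Nlrc5 (0.338%) and B2m (0%) were nearly or wholly distinct, so few or none of their stretches could match reads of another gene. At 100 bases the shared part was 31.5% for H2-T22, 14.1% for H2-Q4, 13% for H2-Q6, 12% for H2-Q7 and below 4% for the others. The sources used here give no read length, strand use or rule for shared reads, so single values of H2-T22, H2-Q4, H2-Q6 and H2-Q7 are uncertain.

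The genes that supply and load peptides mostly moved with the heavy chains. Of 13 such genes tested, 10 were lower in D69A tumors, 1 was higher and 2 did not pass, beside 24.7% lower and 18.8% higher among all tested genes. The median log2 fold change was -1.36 against 0.00 over all tested genes. The largest decreases were those of the immunoproteasome genes Psmb9 (5.53-fold) and Psmb8 (4.63-fold) and of both subunits of the peptide transporter, Tap1 (3.83-fold) and Tap2 (3.71-fold). The smallest p-values belonged to the proteasome activator genes Psme2 (log2 fold change -1.14, SE 0.11) and Psme1 (-0.91, SE 0.10), the immunoproteasome gene Psmb10 (-1.36, SE 0.16) and the tapasin gene Tapbp (-1.39, SE 0.16). Tapbp went from 266 ± 49.6 to 101 ± 22.2 CPM (SD, n = 5 each). The general chaperones of the endoplasmic reticulum did not follow. Canx (calnexin) was 1.21-fold higher in D69A tumors (edgeR's quasi-likelihood test, Benjamini-Hochberg adjusted p = 0.00351). Calr (calreticulin) and Pdia3 had log2 fold changes of -0.09 (SE 0.07) and 0.04 (SE 0.05) and did not pass.

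Among 20 factors that act on class I promoters, 7 were lower, 1 was higher and 12 did not pass, and the median log2 fold change was -0.08. Such a count is near the background of all tested genes, of which 43.5% were called, 24.7% as lower and 18.8% as higher. Interferon-induced factors were among the lower ones: Stat2 (log2 fold change -1.97, SE 0.19), Irf1 (-1.73, SE 0.20), Irf9 (-1.39, SE 0.17) and Irf2 (-0.78, SE 0.10). Irf1 averaged 171 ± 43.6 CPM in WT tumors against 51.8 ± 11.3 CPM in the D69A group (SD, n = 5 each). Ciita, the class II counterpart of Nlrc5 and a gene of antigen-presenting cells, was 7.13-fold lower, and the NF-kappaB subunit Rela was 1.23-fold lower. The factors that assemble with NLRC5 on the promoter boxes did not pass: Rfx5 (-0.18), Rfxap (0.11), Rfxank (-0.01), Nfya (-0.01), Nfyb (0.10), Nfyc (0.12), Creb1 (0.12) and Atf1 (0.06) had log2 fold changes with SEs between 0.05 and 0.10. The same held for Nfkb1 (-0.14), Kat2b (-0.16), Crebbp (0.21) and the histone methyltransferase gene Ezh2 (0.11), while the acetyltransferase gene Ep300 was 1.31-fold higher. A p that misses the threshold does not show that these genes were unchanged.

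Of 29 other class I and class I-like genes, 25 were listed and 17 tested: 9 were lower, 2 higher and 6 did not pass, beside the same background, with a median log2 fold change of -1.51. H2-T10 (4.51-fold), H2-T24 (3.65-fold), H2-Q1 (2.85-fold) and H2-Q10 (6.76-fold) had the smallest p-values, all as decreases, and H2-T10 shares much of its sequence with H2-T22 as given above. Of the stretches of 50 bases, H2-Q10 holds 14% of those of H2-Q7 and 5.18% of those of H2-K1. H2-Q1 holds 5.87% of those of H2-D1. H2-Q10 averaged only 0.27 CPM in D69A tumors, with a lowest value of 0.089 CPM, near the floor. Its decrease is therefore uncertain. Against this direction, Mr1, which presents vitamin metabolites, was 1.27-fold higher and Azgp1, a secreted class I-like protein, 2.58-fold higher. The genes of receptors that bind class I molecules were all lower where tested, 14 of 14 of the 17 on the list (background 24.7%), with a median log2 fold change of -2.65. Klra8 went from 3.21 ± 0.71 to 0.40 ± 0.29 CPM, Klra7 from 2.65 ± 1.09 to 0.31 ± 0.19 CPM and Klra2 from 8.57 ± 3.33 to 2.05 ± 0.85 CPM (SD, n = 5 each). Klra1 averaged 0.68 CPM in WT tumors and 0.05 CPM in the D69A group, the latter below the floor of 3 counts. It was at least 0.611 CPM in each WT tumor and at most 0.107 CPM in each D69A tumor. A gene with such low counts could enter the test only through its WT values, which favours a decrease in advance. The 14 of 14 is therefore a description and not a test against the background. These receptors are made by NK, T and myeloid cells, whose markers fell as given above, and the part of that in the receptor values was not tested.

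**Figure D5:**
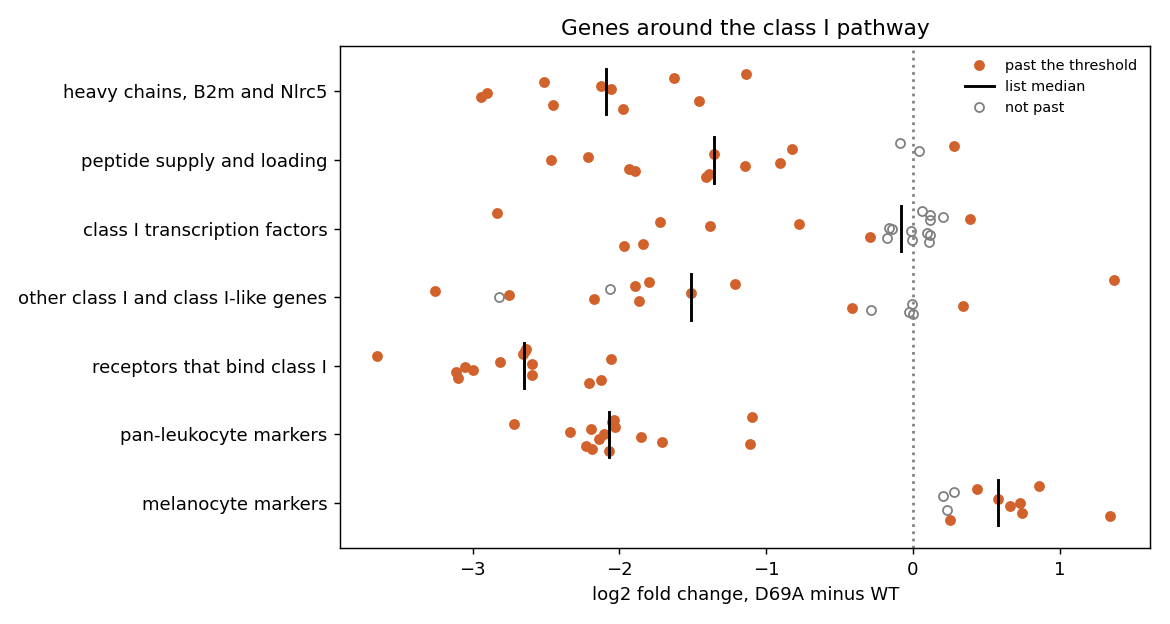
Log2 fold change of D69A against WT for the tested genes of each list, with filled points past the threshold, open points not past it and a bar at each list's median. The heavy chains, B2m and Nlrc5, the receptors and the pan-leukocyte markers lie to the left of 0 throughout. The melanocyte markers lie to its right with a median of 0.58. The other class I and class I-like genes lie on both sides, with Mr1 at 0.34 and Azgp1 at 1.37.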

How the data were processed

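Bulk RNA-seq libraries of 10 tumors, 5 per group, were analysed. The authors deposited whole-number read counts per Ensembl gene in 1 table. Per the submitters' processing notes, fastp, HISAT, Bowtie, RSEM and the mm10 build were used. The sources used here give no versions, annotation, read length or strand use. Since RSEM estimates counts, the deposited values may be rounded, with reads of similar H2 genes divided between rows. Symbols, coordinates and exon lengths came from GENCODE mouse release 21 (17670 identifiers matched, 67 not). Every 2 tumors of a group differed beyond sampling noise (smallest chi-square per degree of freedom 13.9), so their libraries were not copies. Each was counted as 1 replicate, though this does not show that each tumor came from a mouse of its own. Floors cover counting error only.

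Genes with low counts were removed with filterByExpr, libraries were scaled by TMM, and the 2 groups were compared with edgeR (version 4.0.16, in R 4.3.3) by its quasi-likelihood test. A gene with low counts can pass this filter through a single group, which favours a call in that direction. Benjamini-Hochberg adjustment covered 13798 genes, with 0.05 as the threshold. SEs came from the F statistic. CPM used the TMM factors. Correlations used log2 CPM with a prior count of 2. Ratios were compared by exact permutation (scipy 1.17.1). The test was checked on simulated counts with 200 changed genes, balanced up and down, against 6004 genes called in the data. Its behaviour under a change that wide was not checked. DESeq2 1.42.0, limma-voom (limma 3.58.1), other scalings and filters, a stricter threshold, a replicate block and tumors left out were alternatives.

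The 10 genes and all lists were chosen with earlier results of these data known. All 10 are named. Of the other lists, the 4 genes with the smallest p are named, with every gene of the peptide supply and transcription lists that did not pass or went against the rest, and the 5 genes most like H2-K1, B2m and Nlrc5. Psmb8, Psmb9, Tap1, Tap2, Irf9, Ciita and Rela, and the higher Mr1 and Azgp1, were chosen after their values were seen. Some genes that this rule names are not reported here.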

Additional observations from a re-analysis of the deposited data

Results flagged for a closer look

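In 4 of the 10 genes D69A tumor 1 stood apart from the other 4 D69A tumors, with a gap to the next tumor that was large against the range of its group. For H2-K1 it had 189.7 CPM against 79.6 CPM in the next D69A tumor, and for H2-T23 43.73 CPM against 23.75 CPM. For H2-Q6 it had 26.35 CPM against 9.08 CPM, and for H2-Q7 28.73 CPM against 8.52 CPM. These were 4 of 38 groups of values examined (10.5%), where chance gives about 1 in 20 for normally distributed values. The groups share tumors and are not independent. All 4 were flagged on the CPM scale, and no group of log2 ratios to B2m was flagged. D69A tumor 1 was below every WT tumor in all 4 genes. Without it the log2 fold changes were -2.95 for H2-K1, -3.45 for H2-Q6, -3.58 for H2-Q7 and -2.73 for H2-T23, each larger in size than with it. It was also the D69A tumor highest in skeletal muscle markers (mean log2 CPM 5, next 2.70), and the part of that in its class I values was not tested.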

How the results depend on the processing

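All 10 genes were called lower in D69A tumors under each setting run: edgeR with RLE, upper quartile or no scaling, no filter or a filter of 1 CPM in 5 tumors, DESeq2, limma-voom, an adjusted p of 0.01, the replicate block, the 3 tumors highest in muscle markers left out, and each tumor left out in turn. The largest adjusted p was 0.00507 (B2m with the block). The summed heavy chains had a log2 fold change between -2.12 and -1.80 with 1 tumor left out, and the 10 genes stayed at 10 called. Genes called lower ranged from 2826 to 3631 and genes called higher from 2095 to 2936 in those fits. Against 2594 genes called higher, 1727 were called without the 3 tumors highest in muscle markers, a fit on fewer tumors, and 1334 at an adjusted p of 0.01. The numbers of the tumors are not stated to pair them, and same-numbered tumors 2 to 5 had correlations of their deviations of 0.18, -0.42, 0.20 and 0.17. With the replicate block, 10 genes of the group were lower and the summed heavy chains stood at -2.13, while 0 of the 9 ratios to B2m passed, since 4 pairs allow no exact permutation p below 0.125. All 9 ratios kept their direction there. With each tumor left out all 9 ratios passed, H2-T22 with an adjusted p of up to 0.0476. Depth does not limit the 10 genes of the group, whose counts were far above the floor, but it limits H2-Q10 as well as Klra1 and other receptor genes near it.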
